A study of Rattus norvegicus with 325 samples.

Results

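The 8 genes described here encode subunits of voltage-gated calcium channels. They were chosen by symbol, as the lines of the raw count files named Cacna1s, Cacna1e, Cacna1c, Cacna1h, Cacnb1, Cacng1, Cacng6 and Cacna2d1, and all 8 were found among 17315 distinct symbols. The data are bulk RNA-seq libraries of 4 muscles of male Sprague Dawley rats, an outbred stock, with no treatment named in the labels: the diaphragm, gastrocnemius, soleus and tibialis anterior at 7 ages. The youngest rats were 6 months old, followed by those of 9, 12 and 18 months, and the oldest were of 21, 24 and 27 months. Each of the 28 groups of muscle and age held 9 to 13 libraries, each from its own animal within the group, and which libraries of different muscles share an animal is not given in the labels. All tissue of an age was collected on a single day, so that age and collection day cannot be told apart.

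A voltage-gated calcium channel is built around an α1 subunit, which forms the pore and senses the membrane potential. In skeletal muscle the α1 subunit Cacna1s acts above all as the voltage sensor of excitation-contraction coupling in the triad, where it triggers calcium release from the sarcoplasmic reticulum. The β subunit Cacnb1 sits on the cytoplasmic side and is needed to bring the channel to the membrane, the α2δ subunit Cacna2d1 is largely extracellular, and the γ subunit Cacng1 spans the membrane. Denervated muscle fibres re-express genes of the developing synapse, and slow and fast fibres differ in how they handle calcium.

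Library totals ran from 17.6 M to 85.3 M counts, and the medians of the muscles from 27.9 M (diaphragm) to 36.3 M (tibialis anterior). Levels are given as CPM, the counts relative to the library's TMM-scaled total, and they are compared between muscles and ages but not between genes, since no transcript length was used. The muscle labels matched the fibre markers at 6 months: 7 slow-fibre markers summed to between 61602 and 78025 CPM in the soleus and 2698 to 5942 CPM in the tibialis anterior, and 9 fast-fibre markers to between 2168 and 4365 CPM in the soleus and 203095 to 230748 CPM in the tibialis anterior. In bulk tissue, fewer cells of a type and less RNA per cell cannot be told apart. Across the libraries, 8 stood apart from their own group (3 of the diaphragm, 2 each of the gastrocnemius and tibialis anterior, 1 of the soleus), and results that depend on them are given without them as well. All gastrocnemius libraries carry running numbers of another series than those of the other muscles, so that this muscle and its series cannot be told apart. Within each muscle, 6 and 27 months fall within 1 series. In the diaphragm, soleus and tibialis anterior, however, all libraries of 12 months and 1 library each of 21 months carry running numbers of a further series. In those muscles a difference between 12 and 6 months cannot be told apart from one between series.

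The stretches of DNA just before the transcription start are shown for the main α1 subunit, for the α1 subunit that was highest in the soleus, and for a γ subunit that was highest in the gastrocnemius, so that the start regions of genes with unlike patterns over the muscles can be read beside their values. They are from RefSeq on the rat build GRCr8, a different build from the one the counts were made with, and entries were found for 5 of the 8 genes. Capitals mark the E-box CAGCTG. They also mark the E-box CACCTG, read here from the other strand, and the sequence TATAAA. Myogenic factors can bind E-boxes. Each sequence holds the 150 bases before the start, written 5′ to 3′ on the gene's strand, at chr13:50045518-50045667 (plus strand) for Cacna1s, chr13:69444811-69444960 (minus strand) for Cacna1e and chr1:74662754-74662903 (minus strand) for Cacng6.
Cacna1s: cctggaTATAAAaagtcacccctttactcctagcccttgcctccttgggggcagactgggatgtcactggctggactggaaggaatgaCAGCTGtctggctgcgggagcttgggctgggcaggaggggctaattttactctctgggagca
Cacna1e: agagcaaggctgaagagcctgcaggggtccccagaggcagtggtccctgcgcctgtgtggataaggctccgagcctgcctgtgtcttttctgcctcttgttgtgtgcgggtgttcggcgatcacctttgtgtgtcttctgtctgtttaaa
Cacng6: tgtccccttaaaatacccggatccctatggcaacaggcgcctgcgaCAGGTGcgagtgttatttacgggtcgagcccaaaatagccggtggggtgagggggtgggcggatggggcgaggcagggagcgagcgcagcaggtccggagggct

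The Cacna1s window of 300 bases (250 before and 50 after the start) held CAGCTG at 197 and at 62 bases before the start. It held TATAAA at 144 bases before it, and the Cacng6 window held CACCTG at 104 bases before the start. None of these motifs, searched on both strands, nor the MEF2 consensus, was in the windows of Cacna1e, Cacna1c or Cacna2d1. Of 33469 promoters of that length, 15.1% held CAGCTG and 18.8% held CACCTG. For TATAAA the share was 14.2%, and for the MEF2 consensus 3.3%.

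Each age was compared with 6 months within each muscle by limma-voom, and a gene was called when its Benjamini-Hochberg adjusted p over all genes tested was below 0.05 and its change exceeded 1.5-fold. Calls were made in 14 of 192 comparisons of a channel gene, all in limb muscles, against 66 that passed the adjusted p alone. Over all genes the share called ran from 0.00851% to 27.6% by muscle and age, and reached at most 7.52% in the diaphragm. The pooled count and its lack of diaphragm calls are therefore not a result about the channel genes. Of the 14 calls 3 were of Cacna1e at 12 or 18 months, and the rest were at 24 or 27 months. At 27 months 3 of the 8 genes were called in the tibialis anterior (Cacnb1 higher, Cacna1s and Cacna2d1 lower), where 27.6% of all genes tested were called, 2 in the soleus (Cacnb1 higher, Cacna1e lower; 15% of all genes) and 1 in the gastrocnemius (Cacna1s lower; 22.8% of all genes). In the diaphragm 0 of 8 were called by limma-voom, edgeR or DESeq2 at 27 months (7.52% of all genes by limma-voom), although 4 of 8 had an unadjusted p below 0.05 there. The shares over all genes, here and below, are of calls. None is given for an adjusted p alone or an unadjusted p, so counts at those looser thresholds cannot be set against these shares. With 8 genes, a single call moves the share by more than the gap to these backgrounds in each muscle, so that the number called is not a result about the channel genes.

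At 24 months 2 of 8 were called in the gastrocnemius (18.8% of all genes), 2 in the tibialis anterior (14.5%) and 1 in the soleus (6.51%). In the diaphragm it was 0 of 8 (2.68%), where 3 had an unadjusted p below 0.05. At 18 months Cacna1e alone was called, in the gastrocnemius (4.32% of all genes) and in the tibialis anterior (5.45%), against none of the 8 in the diaphragm (2.25%; 3 of 8 at an unadjusted p below 0.05) and the soleus (2.84%; 4 of 8). At 12 months only Cacna1e in the gastrocnemius was called (0.885% of all genes). The shares over all genes at 12 months in the diaphragm, soleus and tibialis anterior were 0.532%, 0.353% and 0.196%. In these muscles 0 channel genes were called at 12 months and none had an unadjusted p below 0.05. Their libraries of 12 months are of another running-number series than those of 6 months. At 21 months none of the 8 was called in any muscle, against 6.47% of all genes (tibialis anterior), 5.81% (gastrocnemius), 2.61% (soleus) and 1.68% (diaphragm). An unadjusted p below 0.05, a looser threshold than that of the shares, was had by 5, 5, 5 and 2 of the 8 in that order. At 9 months none was called either, against 0.00851%, 0.143%, 0.123% and 0.108% of all genes in the same order, with 2, 3, 1 and 1 of the 8 at an unadjusted p below 0.05.

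**Figure D1:**
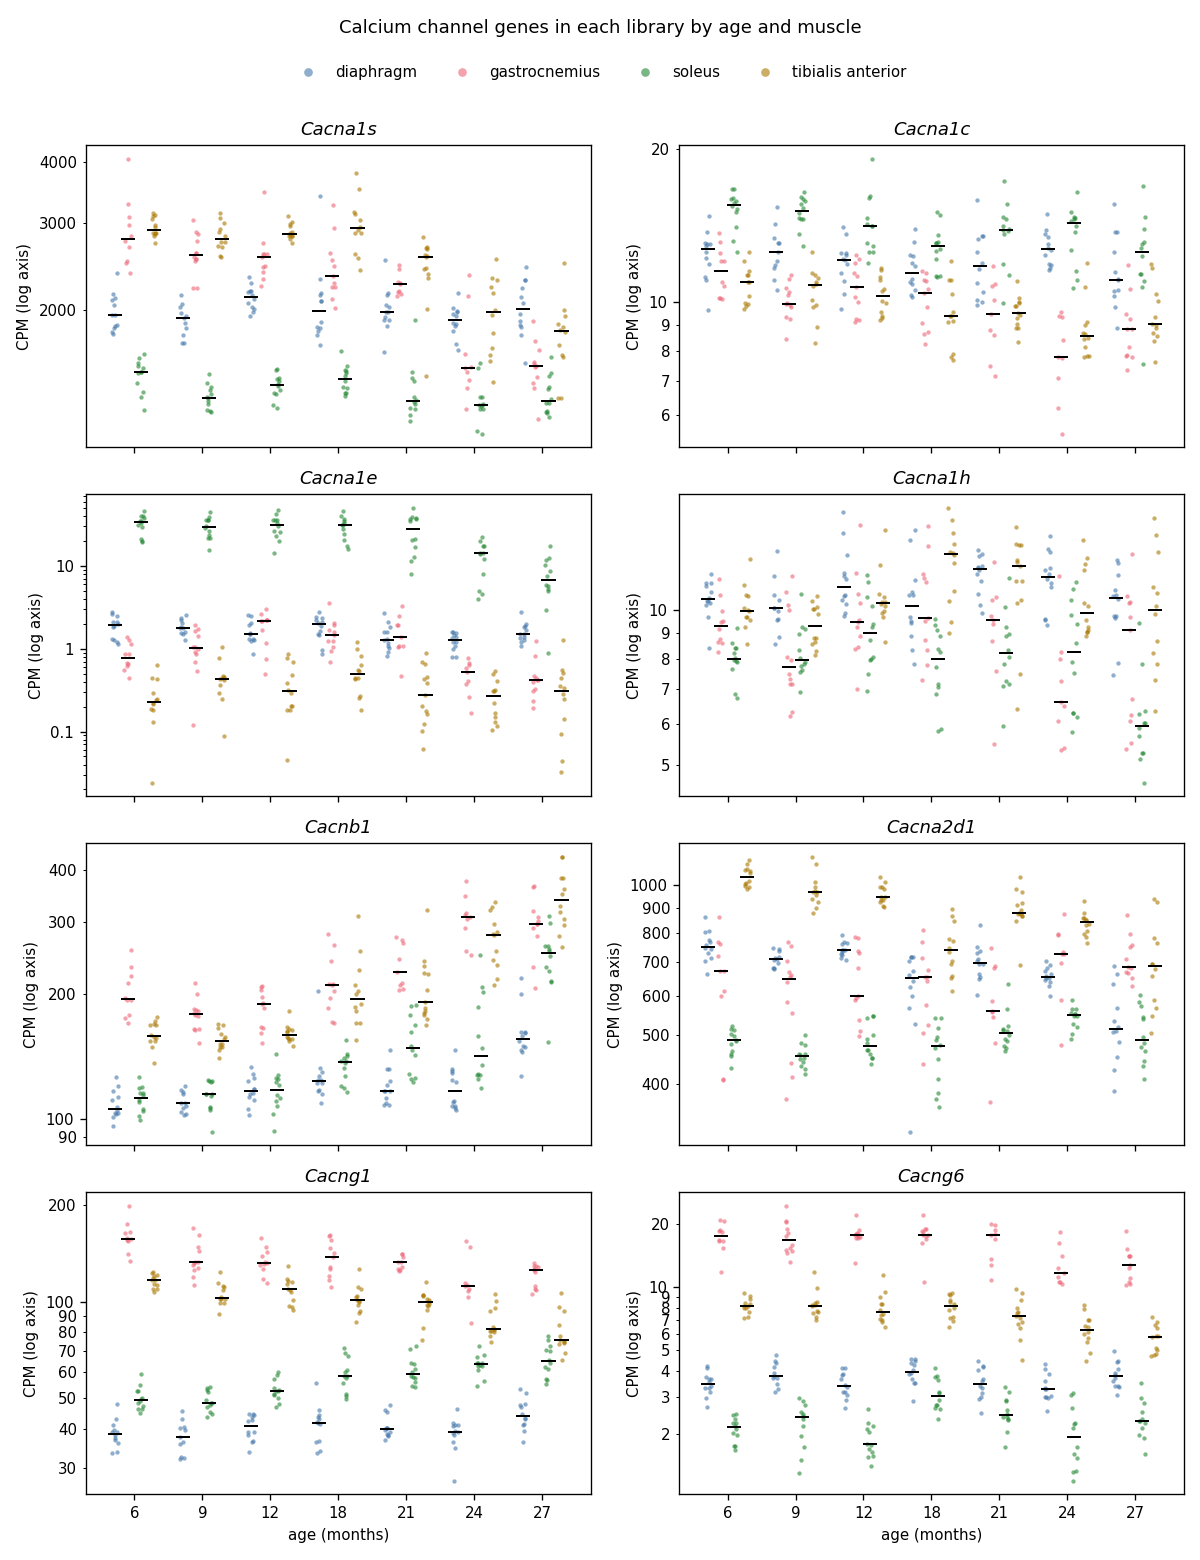
Level of each of the 8 genes in every library, in CPM after TMM scaling on a log axis, against age in months, with 1 point per library, a black line at the median of each group and colours for the 4 muscles. Cacna1s points of the gastrocnemius and tibialis anterior drop at 24 and 27 months, Cacna1e points of the soleus drop from a median of 34.2 to 6.73 CPM, and Cacnb1 points lie higher at 27 than at 6 months in every muscle, with overlap in the gastrocnemius alone.

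Cacna1s, the pore subunit and voltage sensor of skeletal muscle, fell in the old fast limb muscles. In the gastrocnemius it measured 2374, 2792 and 4056 CPM (lowest, median and highest) in 10 libraries at 6 months and 1205, 1544 and 1906 CPM in 11 libraries at 27 months. Every library of 27 months lay below every library of 6 months, a 1.86-fold decrease (log2 change -0.90, SE 0.08, adjusted p = 8.62e-16). At 24 months the 9 libraries, at 1261, 1525 and 2361 CPM, were already below that range (log2 change -0.83, SE 0.08, adjusted p = 2.28e-13). The call at 27 months held with total-count scaling (-0.61), while that at 24 months did not, at -0.56.

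In the tibialis anterior Cacna1s measured 2735, 2913 and 3144 CPM at 6 months, 1430, 1982 and 2535 CPM at 24 months and 1328, 1818 and 2495 CPM at 27 months, with 12 libraries each. All libraries of 24 and 27 months were below the range of 6 months. The log2 changes were -0.59 (SE 0.08, adjusted p = 6.03e-10) and -0.73 (SE 0.07, adjusted p = 2.16e-14). Scaling by total counts instead of TMM gave -0.42 at 27 months, which was no longer over 1.5-fold, and the call at 24 months held under 5 of 11 alternatives. It was lost without the libraries that stood apart, at -0.55. A logistic form described the decline better than a straight line in both muscles, with its midpoint at 22 months in the gastrocnemius and 21.75 months in the tibialis anterior.

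Beside these decreases 3 of 9 fast-fibre markers were called lower in each of the same muscles. Over all genes the share called was 27.6% in the tibialis anterior and 22.8% in the gastrocnemius, so that this count is near those shares. The median sum of the 9 fast-fibre markers was 213032 CPM at 6 months and 129073 CPM at 27 months in the tibialis anterior, and 188966 and 118574 CPM in the gastrocnemius. Of 7 slow-fibre markers 2 were called lower in the tibialis anterior, where their median sum was 3905 and 1985 CPM. In the gastrocnemius 0 of these 7 were called by limma-voom, with 2 at an adjusted p below 0.05 and a median sum of 11977 and 12785 CPM. All 6 macrophage markers rose in both muscles, with a median sum of 82.0 and 230.2 CPM in the tibialis anterior and of 145 and 287 CPM in the gastrocnemius. The part of fibre composition or of macrophages in the Cacna1s values was not tested.

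In the diaphragm no change of Cacna1s was detected, at 1786, 1959 and 2384 CPM at 6 months and 1564, 2015 and 2445 CPM at 27 months, with overlapping ranges and a 95% interval of the log2 change from -0.13 to 0.10. In the soleus the gene measured 1256, 1498 and 1626 CPM at 6 months and 1216, 1309 and 1611 CPM at 27 months. These soleus ranges overlap, with 4 of 12 old libraries below the young range and 0 above it. The log2 change of -0.11 (SE 0.05, adjusted p = 0.0366) was below 1.5-fold and turned to 0.034 under total-count scaling. By medians the muscles were ordered tibialis anterior, gastrocnemius, diaphragm and soleus at 6 months, and diaphragm, tibialis anterior, gastrocnemius and soleus at 27 months.

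Cacna1e, the α1 subunit of the R-type channel, known mainly from neurons and endocrine cells, was highest in the soleus and fell there with age. In 12 soleus libraries each it measured 19.3, 34.2 and 45.9 CPM at 6 months, 3.95, 14.2 and 22.2 CPM at 24 months and 0.89, 6.73 and 17.4 CPM at 27 months. All 12 libraries of 27 months were below the lowest of 6 months, while those of 24 months overlapped that range. The decrease was 4.89-fold at 27 months (log2 change -2.29, SE 0.30, adjusted p = 7.67e-10) and 2.68-fold at 24 months (log2 change -1.42, SE 0.27, adjusted p = 2.4e-05). Both calls held under every alternative run, with log2 changes at 27 months from -2.35 to -2.03. The midpoint of the logistic form was at 23.5 months.

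Among the soleus libraries of 27 months Cacna1e varied more than at 6 months, with an SD of 1.13 against 0.43 on the log2 CPM scale. Beside this decrease the 9 fast-fibre markers, such as the myosin heavy chain Myh4, all rose in the soleus, from a summed 2168 to 4365 CPM at 6 months to 3526 to 12163 CPM at 27 months. Of 7 slow-fibre markers 1 was called lower, which is near the 15% of all genes called in the soleus. All 7 nevertheless had an adjusted p below 0.05, with a median log2 change of -0.37 over the list. The slow-fibre sums were 61602 to 78025 CPM (median 68599 CPM) at 6 months and 25931 to 79581 CPM (median 43941 CPM) at 27 months. Of the 4 neuron markers tested 2 rose and none was called lower, and the 7 on the list summed to 4.50 to 11.2 CPM at 6 months and 6.49 to 19.4 CPM at 27 months. The part of fibre composition in the decrease was not tested.

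Outside the soleus Cacna1e was low. At 6 months the diaphragm gave 1.14, 1.92 and 2.78 CPM and the gastrocnemius 0.45, 0.76 and 1.37 CPM. The tibialis anterior gave 0.024, 0.23 and 0.63 CPM, which stand for 1 to 17 counts a library. The gastrocnemius libraries of 12 months reached 0.49, 2.19 and 3.04 CPM, overlapping those of 6 months (log2 change 1.16, SE 0.33, adjusted p = 0.0397), and those of 18 months 0.68, 1.45 and 3.57 CPM (log2 change 0.93, SE 0.33, adjusted p = 0.0498). Both calls were lost without the libraries that stood apart, with adjusted p of 0.0769 and 0.077, and held under 6 and 5 of 10 alternatives. At 27 months the gastrocnemius gave 0.19, 0.42 and 1.23 CPM (log2 change -0.83, SE 0.41, adjusted p = 0.0725), which edgeR (adjusted p = 0.0337) and DESeq2 (adjusted p = 0.0172) called. In the tibialis anterior the level at 18 months was 0.18, 0.49 and 1.21 CPM (log2 change 1.16, SE 0.39, adjusted p = 0.0154), against a change of 0.26 (SE 0.43) at 27 months.

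Cacna1c, the α1 subunit of the cardiac and smooth-muscle L-type channel, was called at no age in any muscle but drifted down in the limb muscles. In the soleus, where it was highest, it measured 12.6, 15.6 and 16.7 CPM at 6 months and 7.55, 12.6 and 16.9 CPM at 27 months. The ranges overlapped, with 6 of 12 old libraries below the young range and 1 above it (log2 change -0.29, SE 0.07, adjusted p = 0.000611). In the gastrocnemius it went from 10.1, 11.5 and 13.7 CPM at 6 months to 5.50, 7.78 and 9.54 CPM at 24 months, where all 9 libraries lay below the young range at a decrease just short of 1.5-fold (log2 change -0.56, SE 0.09, adjusted p = 2.65e-07), and to 7.34, 8.85 and 11.8 CPM at 27 months (log2 change -0.37, SE 0.08). The tibialis anterior change at 27 months was -0.20 (SE 0.06, adjusted p = 0.00428), and it turned to 0.12 under total-count scaling. That scaling shrank the changes at 27 months to -0.10 in the gastrocnemius and -0.15 in the soleus. A falling straight line was the best form in the 3 limb muscles and no trend in the diaphragm. Smooth-muscle markers, 8 in all, summed to 2391 to 2773 CPM at 6 months and 1502 to 2669 CPM at 27 months in the soleus. The list includes desmin (Des), which is not particular to smooth muscle, so the sum is not a measure of smooth muscle alone. In the soleus 0 of the 8 markers were called by limma-voom (15% of all genes), although 6 had an adjusted p below 0.05. In the gastrocnemius 2 of the 8 markers rose and 1 fell (22.8% of all genes called). Their part in the Cacna1c values was not tested.

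Cacna1h, the α1 subunit of a T-type channel that opens at low voltage, was also called nowhere. In the soleus it measured 6.74, 8.02 and 9.22 CPM at 6 months and 4.61, 5.95 and 9.40 CPM at 27 months. There 10 of 12 old libraries were below the young range and 1 above it (log2 change -0.40, SE 0.10, adjusted p = 0.000557). In the gastrocnemius and tibialis anterior the old libraries spread to both sides of the young range: 5 below and 1 above of 11, and 4 below and 3 above of 12. The SD of log2 CPM in the tibialis anterior was 0.14 at 6 months and 0.38 at 27 months, while the mean change was -0.07 (SE 0.10, adjusted p = 0.55) and turned to 0.27 under total-count scaling.

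Cacnb1, the β subunit of the skeletal muscle channel, was higher at 27 months in every muscle by its adjusted p, and past 1.5-fold in the soleus and tibialis anterior. In the soleus it measured 99.3, 112 and 126 CPM at 6 months and 153, 252 and 309 CPM at 27 months, a 2.19-fold increase (log2 change 1.13, SE 0.09, adjusted p = 1.39e-19). The tibialis anterior level went from 137, 159 and 176 CPM to 261, 340 and 432 CPM, 2.13-fold higher (log2 change 1.09, SE 0.08, adjusted p = 2.82e-21). In both muscles the old and young libraries did not overlap, and the calls held under all 12 alternatives. The tibialis anterior was already above its young range at 24 months, at 211, 279 and 336 CPM (log2 change 0.76, SE 0.08, adjusted p = 2.02e-13).

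In the diaphragm Cacnb1 measured 96.0, 106 and 126 CPM at 6 months and 127, 156 and 219 CPM at 27 months. All 12 old libraries lay above the young ones, but the increase stayed below 1.5-fold (log2 change 0.52, SE 0.06, adjusted p = 2.86e-11). In the gastrocnemius the levels were 171, 195 and 257 CPM at 6 months, 249, 309 and 377 CPM at 24 months and 208, 297 and 367 CPM at 27 months, with 9 of 11 libraries of 27 months above the young range. The change was called at 24 months (log2 0.60, SE 0.08, adjusted p = 1.12e-08) and not at 27 months (log2 0.55, SE 0.08, adjusted p = 1.54e-08), where it was just under 1.5-fold.

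Since both are measured in the same library, the counts of Cacnb1 per 100 counts of Cacna1s do not depend on how libraries are scaled. This ratio in the tibialis anterior was 4.35, 5.49 and 6.16 (lowest, median and highest) at 6 months and 10.5, 19.1 and 28.9 at 27 months. In the gastrocnemius it was 6.33, 7.11 and 7.31 against 10.9, 20.6 and 30.2, and in the soleus 6.52, 7.30 and 9.18 against 10.4, 18.1 and 22.5. In the diaphragm it was 5.27, 5.49 and 5.76 against 6.52, 7.60 and 10.4. In all 4 muscles every library of 27 months exceeded every library of 6 months. In the gastrocnemius and tibialis anterior the numerator rose and the denominator fell, and in the soleus and diaphragm the Cacnb1 counts carried the change. These ratios are a description, with no test.

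**Figure D2:**
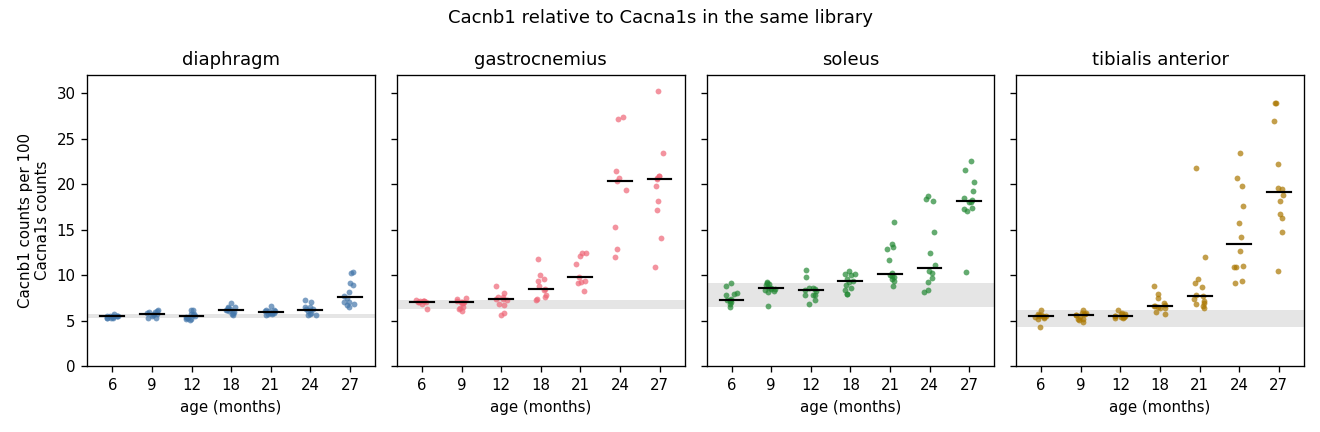
Counts of Cacnb1 per 100 counts of Cacna1s in the same library (linear axis from 0) against age in months, 1 panel per muscle, 1 point per library, a black line at each median and a grey band over the range of 6 months. All points of 27 months lie above the band in all 4 muscles, with medians from 7.60 (diaphragm) to 20.6 (gastrocnemius).

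Cacna2d1, the α2δ subunit, fell in the tibialis anterior, with a decrease just short of the 1.5-fold threshold in the diaphragm. The tibialis anterior level was 983, 1035 and 1122 CPM at 6 months and 506, 687 and 939 CPM at 27 months. No old library reached the young range (log2 change -0.59, SE 0.06, adjusted p = 7.31e-14), but the decrease was only just over 1.5-fold, and edgeR and DESeq2, each at -0.57, did not call it, nor did total-count scaling, at -0.28. At 18 months the level, at 614, 739 and 896 CPM, was also below the young range (log2 change -0.47, SE 0.06, adjusted p = 1.52e-08), whereas at 21 months it was 691, 879 and 1035 CPM, which overlaps it, and at 24 months 764, 842 and 929.7 CPM, again below it.

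In the diaphragm Cacna2d1 went from 663, 752 and 860 CPM to 386, 515 and 688 CPM, with 11 of 12 old libraries below the young range (log2 change -0.57, SE 0.07, adjusted p = 1.04e-09). That is just under 1.5-fold, and the change was called without the libraries that stood apart (-0.62) and with sample quality weights (-0.63). In the soleus it measured 431, 488 and 521 CPM at 6 months and 408, 489.9 and 601 CPM at 27 months, with overlapping ranges (log2 change 0.07, SE 0.05). The gastrocnemius libraries of 6 months were widely spread, at 406, 672 and 861 CPM, and those of 27 months lay at 628, 686 and 869 CPM (log2 change 0.18, SE 0.13, adjusted p = 0.213).

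Cacng1, the γ subunit of the skeletal muscle channel, moved in opposite directions in slow and fast limb muscles, by less than 1.5-fold in each. In the soleus it measured 44.9, 49.2 and 59.4 CPM at 6 months and 55.3, 65.0 and 78.1 CPM at 27 months. There 9 of 12 old libraries lay above the young range (log2 change 0.41, SE 0.05, adjusted p = 4.91e-10). In the tibialis anterior it went from 107, 117 and 124 CPM to 65.6, 75.5 and 106 CPM (log2 change -0.53, SE 0.06, adjusted p = 2.89e-13), and in the gastrocnemius from 134, 157 and 200 CPM to 105, 126 and 132 CPM (log2 change -0.40, SE 0.07, adjusted p = 1e-06). In both fast muscles every old library was below every young one. With total-count scaling the decreases shrank to -0.21 in the tibialis anterior and -0.11 in the gastrocnemius, and the soleus change was 0.56. Straight lines, rising in the soleus and falling in the gastrocnemius and tibialis anterior, were the best form. The diaphragm gave 33.6, 38.5 and 47.6 CPM at 6 months and 36.4, 43.9 and 53.2 CPM at 27 months, with overlapping ranges (log2 change 0.16, SE 0.06, adjusted p = 0.0285).

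Cacng6, a γ subunit that also associates with calcium channels in muscle, was highest in the gastrocnemius and was called at no age. In the gastrocnemius it measured 11.8, 17.5 and 20.9 CPM at 6 months and 10.2, 12.8 and 18.5 CPM at 27 months, with overlapping ranges (log2 change -0.40, SE 0.11, adjusted p = 0.00103). The tibialis anterior level went from 7.11, 8.10 and 9.42 CPM to 4.69, 5.82 and 7.20 CPM, with 11 of 12 old libraries below the young range (log2 change -0.54, SE 0.10, adjusted p = 6.73e-07). With total-count scaling these changes shrank to -0.12 in the gastrocnemius and -0.20 in the tibialis anterior. The logistic midpoints were at 21.5 and 22.25 months, close to those of Cacna1s in the same muscles. In the soleus it was 1.68, 2.15 and 2.49 CPM at 6 months, 2.35, 3.03 and 4.14 CPM at 18 months (log2 change 0.56, SE 0.12, adjusted p = 0.000184) and 1.62, 2.31 and 3.51 CPM at 27 months (log2 change 0.20, SE 0.12). In the diaphragm it was 2.69, 3.47 and 4.20 CPM at 6 months and 3.07, 3.76 and 4.96 CPM at 27 months, also overlapping.

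**Figure D3:**
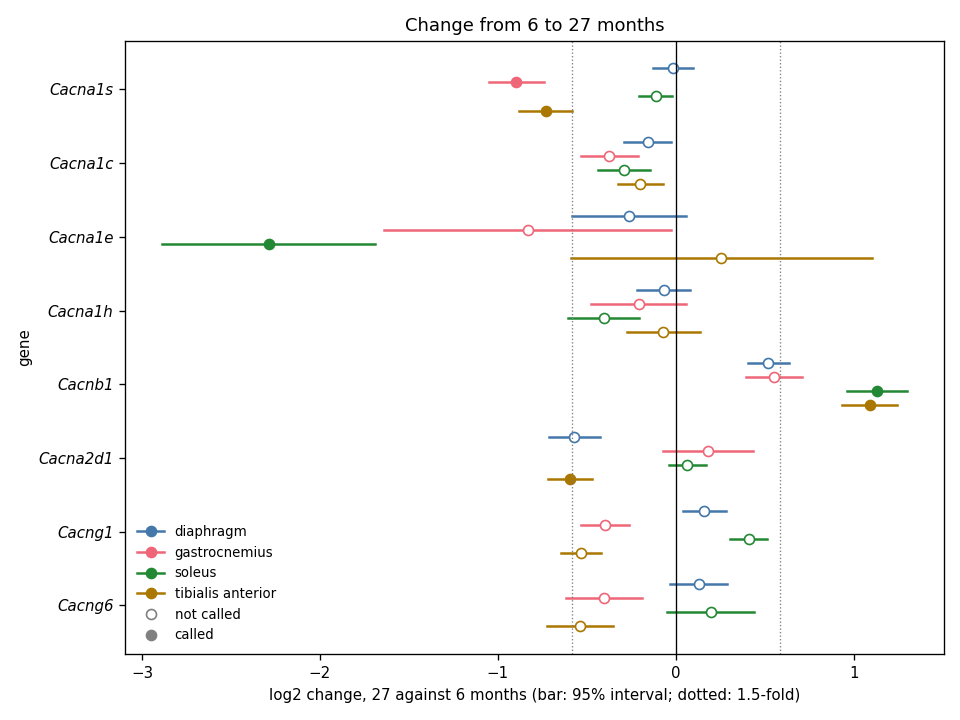
Log2 change from 6 to 27 months of each gene in each muscle by limma-voom, with the 95% interval as a bar, filled points for calls, open points otherwise, and dotted lines at 1.5-fold. Cacnb1 lies to the right of 0 in all 4 muscles, from 0.52 to 1.13, and Cacna1e of the soleus lies farthest to the left, at -2.29.

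Between muscles of 6-month rats, 23 of 48 comparisons of a channel gene were called, against 17.3% to 45.4% of all genes in a pair. They came from 1 fit of all libraries. That fit took the libraries as independent, although those of different muscles may share an animal. Its SEs and p-values between muscles, here and for the differences in change below, rest on that assumption. Cacna1e was called in all 6 pairs of muscles, and was higher in the soleus than in the diaphragm (log2 difference, diaphragm minus soleus, -4.10, SE 0.27, adjusted p = 5.41e-37), the gastrocnemius (gastrocnemius minus soleus -5.31, SE 0.42) and the tibialis anterior (soleus minus tibialis anterior 7.10, SE 0.60). The order was soleus, diaphragm, gastrocnemius and tibialis anterior. The diaphragm against gastrocnemius step, at 1.21 (adjusted p = 0.0184), lost its call without the libraries that stood apart (adjusted p = 0.0511).

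Cacng6 was also called in all 6 pairs. It fell from the gastrocnemius through the tibialis anterior and diaphragm to the soleus, with log2 steps of 1.09 (SE 0.09), 1.25 (SE 0.11; diaphragm minus tibialis anterior -1.25) and 0.71 (SE 0.14). Cacng1 was 4.13-fold higher in the gastrocnemius than in the diaphragm (diaphragm minus gastrocnemius -2.05, SE 0.07, adjusted p = 3.98e-93), and the order was gastrocnemius, tibialis anterior, soleus and diaphragm. Neighbours in that order at the top and at the bottom differed by less than 1.5-fold, at 0.46 (SE 0.06) and, for diaphragm minus soleus, -0.37 (SE 0.06).

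The remaining genes differed less between young muscles. Cacna1s was 1.95-fold higher in the gastrocnemius than in the soleus (0.96, SE 0.07), and did not differ detectably between the gastrocnemius and tibialis anterior (-0.04, 95% interval -0.18 to 0.10). Cacnb1 was highest in the gastrocnemius, at a log2 difference of 0.86 (SE 0.08) over the soleus and of 0.90 over the diaphragm (diaphragm minus gastrocnemius -0.90, SE 0.08), while the diaphragm and soleus, the lowest, were not set apart (-0.04, 95% interval -0.19 to 0.11). Cacna2d1 was highest in the tibialis anterior, by 2.15-fold over the soleus (soleus minus tibialis anterior -1.10, SE 0.08). Cacna1c and Cacna1h were called in none of the 6 pairs by limma-voom, although the soleus was highest for Cacna1c (soleus minus tibialis anterior 0.48, SE 0.07, adjusted p = 1.42e-10) and lowest for Cacna1h (diaphragm minus soleus 0.39, SE 0.10, adjusted p = 0.000489).

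The number of channel genes called in a pair was 4 for the diaphragm against the gastrocnemius, where 37.3% of 12784 genes were called, 3 for the diaphragm against the soleus (23.9%), and 3 for the diaphragm against the tibialis anterior (35.1%). It was 5 for the gastrocnemius against the soleus (45.4%), 3 for the gastrocnemius against the tibialis anterior (17.3%) and 5 for the soleus against the tibialis anterior (42.9%).

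Whether the change from 6 to 27 months differed between muscles was tested in the same fit. Of 48 such differences 16 were called, against 7.32% to 21.6% of all genes in a pair of muscles. For Cacna1s the change in the diaphragm exceeded that in the gastrocnemius by 0.93 (log2, SE 0.10, adjusted p = 2.34e-16) and that in the tibialis anterior by 0.77 (SE 0.10, adjusted p = 7.27e-13), whereas the gastrocnemius and tibialis anterior were not set apart (-0.16, 95% interval -0.36 to 0.03). For Cacna1e the soleus lost more than the diaphragm (diaphragm minus soleus 2.08, SE 0.40, adjusted p = 4.77e-06). The difference between the gastrocnemius and soleus was not called (gastrocnemius minus soleus 1.46, SE 0.66, adjusted p = 0.0643). For Cacng1 the soleus and tibialis anterior changes differed by 0.94 (SE 0.09, adjusted p = 7.84e-21), with opposite signs in the muscles. For Cacna2d1 the diaphragm minus gastrocnemius difference was -0.70 (SE 0.11, adjusted p = 1.5e-08), and the diaphragm and tibialis anterior were not set apart (0.07, 95% interval -0.14 to 0.29).

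Cacnb1 had no difference over 1.5-fold between muscles. Its increase was nevertheless smaller in the diaphragm than in the soleus (diaphragm minus soleus -0.55, SE 0.11, adjusted p = 1.07e-05) and than in the tibialis anterior (-0.52, SE 0.11, adjusted p = 1.78e-05), and smaller in the gastrocnemius than in the soleus (-0.57, SE 0.11, adjusted p = 9.87e-06) and than in the tibialis anterior (-0.54, SE 0.11, adjusted p = 5.31e-05). Without the libraries that stood apart the differences from the soleus were called, at -0.63 for the diaphragm and -0.60 for the gastrocnemius. Over all genes the share called was 21.6% for the diaphragm against the gastrocnemius (3 of the 8 channel genes), 11.9% against the soleus (1 of 8) and 20.3% against the tibialis anterior (3 of 8). It was 14.5% for the gastrocnemius against the soleus (3 of 8), 7.32% for the gastrocnemius against the tibialis anterior (1 of 8) and 15.8% for the soleus against the tibialis anterior (5 of 8).

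Markers of denervation moved strongly in the same comparisons. All 8 on the list, among them the acetylcholine receptor subunits Chrna1, Chrnd and Chrng, rose in every muscle at 27 months, with a median log2 change of 4.66 (tibialis anterior), 3.79 (gastrocnemius), 2.18 (soleus) and 1.27 (diaphragm). The shares of all genes called were 27.6%, 22.8%, 15% and 7.52% in that order. The list was chosen with earlier results of these data known, so that this count is a description and not an independent result. The denervation score used here is the mean log2 CPM of these 8 genes in a library. Among the 27-month libraries it ran from 5.65 to 7.89 in the tibialis anterior, 5.26 to 7.07 in the gastrocnemius and 4.27 to 6.93 in the soleus. In the diaphragm it ran from 3.79 to 6.05, with no library between 4.39 and 5.10.

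Within the 12 tibialis anterior libraries of 27 months Cacnb1 was higher where the score was higher (Pearson r = 0.82, permutation p = 0.00107, adjusted p = 0.0116 over 32 relations computed; Spearman rho = 0.84, adjusted p = 0.0178; r = 0.72 without the 2 libraries of most extreme score). Cacna1h was lower where the score was higher (r = -0.85, permutation p = 0.00034, adjusted p = 0.0109; rho = -0.92, adjusted p = 0.00224; r = -0.91 without those 2 libraries), which runs along with its wide spread there. Cacna1s gave r = -0.83 (permutation p = 0.00121, adjusted p = 0.0116; rho = -0.69, adjusted p = 0.0638; r = -0.63 without those 2 libraries). Cacng1 gave r = -0.73 (permutation p = 0.00777, adjusted p = 0.0333; rho = -0.71, adjusted p = 0.0551; r = -0.51 without those 2 libraries). Of these, Cacnb1 and Cacna1h passed by both measures, and Cacna1s and Cacng1 by Pearson's r alone.

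In the gastrocnemius Cacna1h again ran against the score (r = -0.72, permutation p = 0.00832, adjusted p = 0.0333; rho = -0.82, adjusted p = 0.0263; r = -0.85 without the 2 extreme libraries, 11 in all). The positive relation of Cacnb1 there rests on the 2 extreme libraries (r = 0.86, permutation p = 0.00145, adjusted p = 0.0116; r = 0.42 without them; rho = 0.67, adjusted p = 0.0891), and Cacna1s gave r = -0.78 (permutation p = 0.00359, adjusted p = 0.023; rho = -0.61, adjusted p = 0.15; r = -0.60 without them). In the soleus Cacnb1 gave r = 0.80 (permutation p = 0.0076, adjusted p = 0.0333; rho = 0.65, adjusted p = 0.0891; r = 0.76 without the 2 extreme libraries) and Cacna2d1 r = -0.66 (permutation p = 0.0112, adjusted p = 0.0399; rho = -0.78, adjusted p = 0.0289; r = -0.72 without them). In the 12 diaphragm libraries Cacnb1 passed by rho alone (r = 0.59, permutation p = 0.0419, adjusted p = 0.134; rho = 0.82, adjusted p = 0.0208; r = 0.77 without the 2 extreme libraries), and Cacna1s turned from r = -0.31 (permutation p = 0.335, adjusted p = 0.51) to 0.30 without those libraries. They hold 7 libraries below the gap in the score and 5 above it, and were not tested within these. Score and gene level share the scaling of the library.

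**Figure D4:**
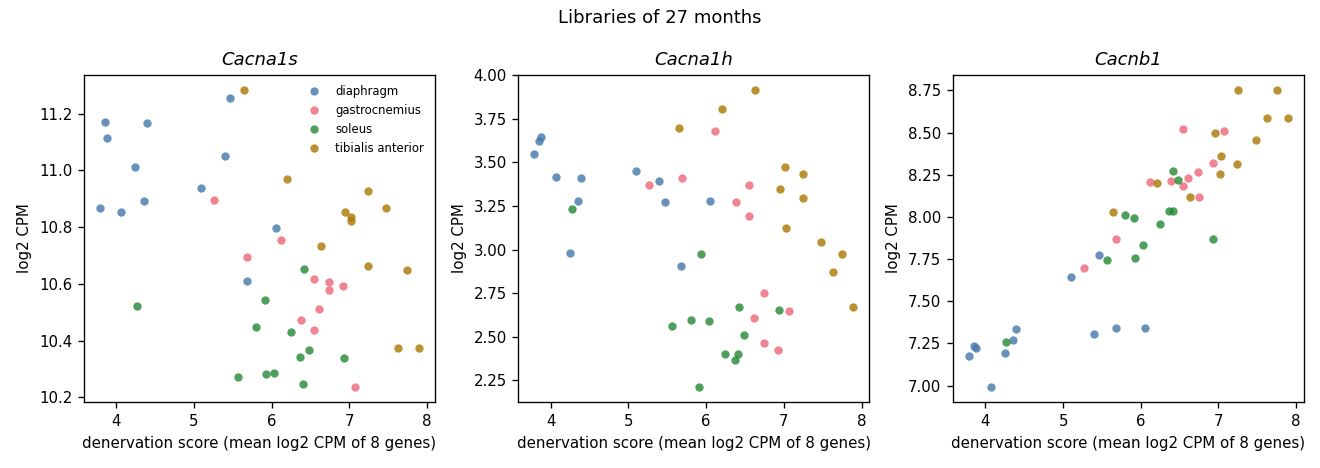
Level of Cacna1s, Cacna1h and Cacnb1 (log2 CPM) against the denervation score (mean log2 CPM of 8 genes) in the libraries of 27 months, 1 point per library, coloured by muscle. Cacnb1 rises and Cacna1h falls along the score among the tibialis anterior points, with r of 0.82 and -0.85.

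Over the 28 group means of log2 CPM, the genes whose pattern was most like that of each channel gene were sought among 10410 genes, as a description. The groups share depth and collection days. For Cacna1s they were LOC361985 (r = 0.985), Zfp423 (r = 0.984) and Rnf123 (r = 0.981). For Cacna1e they were Slc38a1 (r = 0.989), Slc35d1 (r = 0.983) and Vtcn1 (r = 0.979), and for Cacnb1 H6pd (r = 0.986), the acetylcholine receptor β subunit Chrnb1 (r = 0.984) and Lgals1 (r = 0.959). Cacng6 was most like Tubg1 (r = 0.997), Timm13 (r = 0.991) and Sart1 (r = 0.99), and Cacng1 most like Hoxa6, Ppm1g and Rbm17 (r = 0.97 each). Cacna2d1 was most like Dram2 (r = 0.97), Ddx1 and Lnp (r = 0.95 each), and Cacna1c most like Jam3 (r = 0.96), Cachd1 and Sdpr (r = 0.93 each). Cacna1h had the weakest match, with Prkce (r = 0.87), Ndufs1 and Abcb8 (r = 0.85 each).

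Of 18 further genes of channel subunits, 9 to 11 passed the filter on low counts in a muscle. At 27 months 2 of 10 were lower in the diaphragm, 2 of 9 higher and 3 lower in the gastrocnemius, and 2 of 10 higher and 2 lower in the tibialis anterior. In the soleus 0 of 11 were called by limma-voom, with 3 at an unadjusted p below 0.05. Over all genes the shares called were 7.52% (diaphragm), 22.8% (gastrocnemius), 27.6% (tibialis anterior) and 15% (soleus). The γ subunit Cacng7 changed most: it measured 5.60, 6.87 and 7.81 CPM in the tibialis anterior at 6 months and 0.29, 1.22 and 4.11 CPM at 27 months (log2 change -2.72, SE 0.31, adjusted p = 2.17e-12), and in the gastrocnemius 4.69, 6.53 and 8.16 CPM against 0.84, 1.34 and 2.51 CPM (log2 change -2.19, SE 0.22, adjusted p = 6.17e-14). Old and young libraries did not overlap in either muscle.

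The P/Q-type α1 subunit Cacna1a was lower in the same muscles, with log2 changes of -1.21 (SE 0.16, adjusted p = 1.01e-10) in the tibialis anterior and -0.96 (SE 0.11, adjusted p = 1.61e-11) in the gastrocnemius. The α2δ subunit Cacna2d3 rose in both, by 1.32 (SE 0.15) and 0.76 (SE 0.17). The T-type α1 subunit Cacna1g fell in the diaphragm (-0.69, SE 0.13) and gastrocnemius (-0.70, SE 0.12). The β subunit Cacnb4 was lower in the diaphragm (-0.78, SE 0.13) and higher in the gastrocnemius (0.82, SE 0.16), and the N-type α1 subunit Cacna1b was higher in the tibialis anterior (1.04, SE 0.30, adjusted p = 0.00179).

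Of 13 genes for proteins that bind or regulate these channels, 12 were listed and 10 or 11 tested in a muscle. At 27 months 3 were higher and 1 lower in the gastrocnemius, 4 higher in the soleus, and 2 higher and 2 lower in the tibialis anterior, against 0 of 11 in the diaphragm by limma-voom, where 5 had an unadjusted p below 0.05. The shares over all genes were 22.8%, 15%, 27.6% and 7.52% in that order. The small GTPase Rrad, which inhibits high-voltage-activated channels through the β subunit, measured 5.70, 6.78 and 15.9 CPM in the tibialis anterior at 6 months and 24.2, 45.0 and 101 CPM at 27 months. The groups did not overlap (log2 change 2.64, SE 0.27, adjusted p = 1.96e-14), and in the gastrocnemius, where they did, the change was 1.34 (SE 0.24, adjusted p = 1.54e-06). Its relative Gem rose in the gastrocnemius (1.15, SE 0.17), soleus (0.88, SE 0.19) and tibialis anterior (1.00, SE 0.15).

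Calm3, a calmodulin gene, was lower in the tibialis anterior (-1.04, SE 0.11) and gastrocnemius (-0.87, SE 0.10). The anchoring protein Akap6 was higher in the gastrocnemius (0.65, SE 0.07), and the scaffold Ahnak (0.60, SE 0.05), the kinase Camk2d (0.63, SE 0.07) and the adaptor Stac2 (1.46, SE 0.50, from 0 to 10 counts a library at 6 months and 5 to 29 at 27 months) in the soleus.

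Of 18 genes for partners of Cacna1s at the triad 15 were listed and 14 tested in each muscle, and Asph, Ryr1 and Ryr3 were not analysed here. At 27 months 1 was higher and 7 lower in the tibialis anterior, 1 higher and 3 lower in the gastrocnemius, 1 lower in the soleus and 1 lower in the diaphragm. All genes were called in the same order of muscles, at 27.6%, 22.8%, 15% and 7.52%, and a difference between muscles in the list was not tested. The junctophilins, which tie the T-tubule to the sarcoplasmic reticulum, fell in the tibialis anterior by 0.84 (Jph1, SE 0.09) and 1.01 (Jph2, SE 0.13) on the log2 scale, and Jph2 fell by 0.91 (SE 0.13) in the gastrocnemius. Triadin (Trdn), which links the release channel to calsequestrin, had log2 changes of -1.16 in the tibialis anterior (SE 0.14) and diaphragm (SE 0.13) and of -0.78 in the soleus (SE 0.13).

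The calsequestrins, which store calcium in the sarcoplasmic reticulum, moved apart in the tibialis anterior. Casq1, the form of fast fibres, measured 4002, 4415 and 4734 CPM at 6 months and 1745, 2754 and 4049 CPM at 27 months (log2 change -0.68, SE 0.09, adjusted p = 1.52e-10), and Casq2, the cardiac and slow form, 26.3, 46.0 and 62.2 CPM against 53.0, 108 and 161 CPM (log2 change 1.22, SE 0.23, adjusted p = 1.92e-06). In the gastrocnemius Casq2 also rose (1.04, SE 0.16). The caveolin Cav3 fell in the tibialis anterior (-0.93, SE 0.08) and gastrocnemius (-0.70, SE 0.09), as did the potassium channel of the reticulum Tmem38a (-0.73, SE 0.08, and -0.66, SE 0.08), and the calcium-binding protein Hrc fell in the tibialis anterior (-0.61, SE 0.06).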

How the data were processed

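The authors deposited raw counts per gene for each library. Per the study's methods these came from strand-specific, rRNA-depleted total RNA, sequenced as read pairs and processed with an ArrayStudio pipeline (version not given in the sources used here) on the rat B6.0 reference with a gene model based on RefSeq. Groups are muscle and age from the labels. The 8 genes, the gene lists and the tests were chosen with earlier results of these data known. Named genes were the 8 members, the channel, regulator and triad genes called at 27 months in any muscle, genes of the other lists called in at least 2 muscles and, for each member, the 3 genes of most similar pattern.

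Counts were tested per muscle with limma-voom (limma 3.58.1, edgeR 4.0.16 for TMM and filterByExpr with a minimum count of 10 and a minimum total of 15, R 4.3.3). Pairs of muscles and differences in change came from 1 fit of all 28 groups. Calls needed a Benjamini-Hochberg adjusted p below 0.05 and a change over 1.5-fold. Log2 CPM used a prior count of 0.5. Trends were called linear or logistic by BIC differences over 6 and 2. Correlations used 100000 permutations. Scripts were tested on simulated data. Alternatives included edgeR, DESeq2 1.42.0, total-count scaling and a replicate block. The replicate numbers were not used to pair libraries. Some genes of the lists are counted but not reported here by name.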

Additional observations from a re-analysis of the deposited data

Results flagged for a closer look

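Of 48 tests of whether the change from 6 to 27 months differed between a pair of muscles, 16 passed an adjusted p below 0.05 at over 1.5-fold (limma-voom). Over all genes 7.32% to 21.6% passed in a pair of muscles. Each of the 16 differences is given as the log2 change in the first muscle minus that in the second. For Cacna1s the differences were 0.93 (diaphragm minus gastrocnemius), 0.77 (diaphragm minus tibialis anterior), -0.78 (gastrocnemius minus soleus) and 0.61 (soleus minus tibialis anterior). For Cacna1e they were 2.08 (diaphragm minus soleus) and -2.55 (soleus minus tibialis anterior), the latter on few counts in the tibialis anterior. For Cacng1 they were 0.61 (diaphragm minus gastrocnemius), 0.74 (diaphragm minus tibialis anterior), -0.80 (gastrocnemius minus soleus) and 0.94 (soleus minus tibialis anterior). For Cacng6 they were 0.71 (diaphragm minus tibialis anterior), -0.59 (gastrocnemius minus soleus) and 0.72 (soleus minus tibialis anterior). For Cacna2d1 they were -0.70 (diaphragm minus gastrocnemius), 0.78 (gastrocnemius minus tibialis anterior) and 0.65 (soleus minus tibialis anterior). Without the libraries that stood apart the calls of Cacng1 (diaphragm minus gastrocnemius, 0.56) and Cacng6 (gastrocnemius minus soleus, -0.53) fell below 1.5-fold. No library was far from the rest in the 24 sets of values with 10 libraries or fewer.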

How the results depend on the processing

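Counts of called channel genes changed as follows. At 27 months the diaphragm went from 0 to 1 with sample quality weights and without the libraries that stood apart, as it did over all later ages. The gastrocnemius went from 1 to 0 at a 2-fold threshold and to 2 with edgeR, DESeq2, total-count scaling, quality weights or 6 and 27 months alone. Over its later ages it went from 5 to 3 with Bonferroni adjustment, no low-count filter, the replicate block or without the libraries that stood apart, to 1 at 2-fold and to 8 with DESeq2. The tibialis anterior went from 3 to 1 at 2-fold and with total-count scaling, and over later ages from 6 to 2 and 3. Pairs at 6 months went from 3 to 1 (diaphragm and soleus) and from 5 to 3 (gastrocnemius and soleus) at 2-fold.

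Differences in change went at 2-fold to 0 for the diaphragm with gastrocnemius (from 3), the diaphragm with tibialis anterior (from 3), the gastrocnemius with soleus (from 3) and the gastrocnemius with tibialis anterior (from 1), and from 5 to 1 for the soleus with tibialis anterior. Total-count scaling gave 3 for the diaphragm with soleus (from 1), 1 for the diaphragm with tibialis anterior, 2 for the gastrocnemius with tibialis anterior and 2 for the soleus with tibialis anterior. The diaphragm with soleus gave 2 with RLE size factors and 3 with quality weights, DESeq2 or without the libraries that stood apart. The gastrocnemius with soleus gave 5 with edgeR and DESeq2, the gastrocnemius with tibialis anterior 2 with DESeq2, and the soleus with tibialis anterior 3 with Bonferroni adjustment.

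Among values whose adjusted p was below 0.05 as reported or under the alternative, direction turned under total-count scaling alone: Cacna1s in the soleus to 0.034, Cacna1c and Cacna1h in the tibialis anterior to 0.12 and 0.27 at 27 months, Cacna1h to -0.15 (gastrocnemius minus soleus) and 0.070 (soleus minus tibialis anterior) and Cacna2d1 to -0.013 (gastrocnemius minus soleus) at 6 months, and the differences in change of Cacna1c (diaphragm minus gastrocnemius) to -0.017 and Cacna1h (diaphragm minus tibialis anterior) to -0.30. Values that passed in neither case also changed sign, under this and other settings, among them Cacna1s in the diaphragm (from -0.015 to 0.023 with total-count scaling) and Cacna1h in the gastrocnemius (from -0.21 to 0.072). Total-count scaling moved the median log2 change of all genes at 27 months from 0.04 to 0.32 in the gastrocnemius, 0.02 to 0.16 in the soleus and 0.02 to 0.34 in the tibialis anterior, and the share of calls that were higher from 66% to 90%, 61.4% to 77.7% and 62.4% to 89.1%. The cause was not tested. Libraries of the same number and age in different muscles had a median correlation of deviations of 0.129 (-0.617 to 0.742), and the correlation estimated for the replicate block was 0.066. Low counts limit Cacna1e outside the soleus.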

Other observations

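At 6 months Cacna2d1 varied more between gastrocnemius libraries (SD of log2 CPM 0.37) than between those of the diaphragm (0.10), soleus (0.08) or tibialis anterior (0.06). Trdn had a wide range in the same gastrocnemius group, from 377 to 2348 CPM. Rrad measured 221 CPM in 1 diaphragm library of 6 months, against a group median of 29.7 CPM.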
